A study of Mus musculus with 60 samples.

Results

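The genes described here are 10 markers of the crypt base stem cell: Ascl2, Cdca7, Cdk6, Olfm4, Smoc2, Gkn3, Tnfrsf19, Rgmb, Slc14a1 and Sorbs2. They were taken by name from a count table of 55357 mouse genes, and all 10 had a row and passed the filter on low counts, which kept 23360 genes. No measured value entered their choice by rule, although the list was drawn up with earlier results of these data known. The crypt base of the gut holds stem cells that carry the Wnt-dependent receptor Lgr5 and renew the whole epithelium; their daughters divide further up the crypt and then differentiate. Stem cell identity there is maintained by Wnt signalling, which acts through TCF factors and the transcription factor Ascl2. Most marker genes of this state were defined in the small intestine, where the stem cells sit between Paneth cells, a cell type that the colon lacks.

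The study measured polyA RNA of sorted epithelial cells from Lgr5-2A-eGFP mice that were 8 weeks old, in which GFP is made together with Lgr5. All groups carry this reporter, and no wild-type group was analysed here. The small intestine was cut into 3 equal parts (proximal, middle, distal) and the colon into 2 (proximal, distal). Cells of each part were sorted by flow cytometry by their GFP signal into a high, an intermediate and a negative fraction, each of at least 50000 cells for the small intestine and 30000 for the colon. This gave 15 groups of 4 libraries. The labels do not say whether a library holds 1 animal or a pool, so the p-values below measure the spread between these libraries. In sorted bulk RNA, fewer cells of a type and less RNA per cell cannot be told apart.

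The members cover several kinds of protein. Ascl2 (ENSMUSG00000009248.7) is the transcription factor of the stem cell program. Cdca7 (ENSMUSG00000055612.16) is a chromatin-associated protein of dividing cells and Cdk6 (ENSMUSG00000040274.12) a cyclin D-dependent kinase of the cell cycle. Olfm4 (ENSMUSG00000022026.8), Smoc2 (ENSMUSG00000023886.11) and Gkn3 (ENSMUSG00000030048.6) encode secreted proteins: a glycoprotein, a calcium-binding matrix protein and a gastrokine. Tnfrsf19 (ENSMUSG00000060548.14), also called Troy, is a receptor of the TNF receptor superfamily. Rgmb (ENSMUSG00000048027.10) is a membrane-anchored BMP co-receptor and Slc14a1 (ENSMUSG00000059336.15) a urea transporter. Sorbs2 (ENSMUSG00000031626.19) encodes an adaptor protein of the actin cytoskeleton.

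Promoter sequence was found for 8 of the 10 members in RefSeq windows on the mouse build GRCm38.p6; Smoc2 and Slc14a1 were not matched. In the 250 bases before each start, the letters of the TCF/LEF core motif CTTTGA and of the E-box CAGCTG, the kind of site bound by basic helix-loop-helix factors such as Ascl2, were searched on both strands (the first reads TCAAAG on the other strand, the second reads the same, and they do not overlap). Over all 32851 windows, 13.8% held the first and 13% the second. Among the 13 windows of the members, 1 held the first (Tnfrsf19) and 2 held the second (Sorbs2 and Tnfrsf19). The windows are shown with the matches in capitals for these 2 genes, and for Olfm4 and Gkn3 because their RNA was nearly confined to the small intestine; they lie at chr14:61037988-61038237 (Tnfrsf19, minus strand), chr8:45507538-45507787 (Sorbs2, plus strand), chr14:80000052-80000301 (Olfm4, plus strand) and chr6:87388936-87389185 (Gkn3, minus strand).
Tnfrsf19: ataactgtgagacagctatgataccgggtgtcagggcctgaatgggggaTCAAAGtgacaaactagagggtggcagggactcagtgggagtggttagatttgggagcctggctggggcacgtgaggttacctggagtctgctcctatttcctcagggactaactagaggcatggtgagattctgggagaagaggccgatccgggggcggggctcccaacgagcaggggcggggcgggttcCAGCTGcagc
Sorbs2: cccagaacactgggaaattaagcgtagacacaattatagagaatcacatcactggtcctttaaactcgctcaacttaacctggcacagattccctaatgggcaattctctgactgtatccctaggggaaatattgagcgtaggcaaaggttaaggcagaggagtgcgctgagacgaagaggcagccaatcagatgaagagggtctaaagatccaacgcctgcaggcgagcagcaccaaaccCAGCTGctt
Olfm4: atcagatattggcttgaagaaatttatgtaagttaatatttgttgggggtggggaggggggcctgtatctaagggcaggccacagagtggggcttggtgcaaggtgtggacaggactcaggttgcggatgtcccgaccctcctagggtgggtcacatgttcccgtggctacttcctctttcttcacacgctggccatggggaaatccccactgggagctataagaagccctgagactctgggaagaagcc
Gkn3: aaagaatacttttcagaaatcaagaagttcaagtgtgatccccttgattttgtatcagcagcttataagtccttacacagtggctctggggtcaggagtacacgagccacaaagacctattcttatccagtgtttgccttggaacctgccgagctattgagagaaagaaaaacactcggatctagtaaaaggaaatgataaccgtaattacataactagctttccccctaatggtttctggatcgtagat
In Tnfrsf19 the TCF/LEF letters stand 201 bases before the start and the E-box 10 bases before it; in Sorbs2 the E-box stands 9 bases before the start. The Olfm4 and Gkn3 windows hold neither set of letters. Nor do the windows of the other RefSeq starts of Tnfrsf19 (chr14:61046856-61047105) and Sorbs2 (chr8:45627501-45627750 and chr8:45661743-45661992). A match is a description of the letters in these windows, and no binding was measured.

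Depth was high and even: the 60 libraries held 55411864 to 113917959 counts each (median 81230235). Levels are given as CPM, counts scaled to library size. Lgr5 itself, the gene whose expression the sort follows, ranged from 145 to 598 CPM over the GFP-high libraries and from 1.64 to 17.4 CPM over the GFP-negative libraries, in the order that the labels give in all 5 parts. Low counts were mostly even numbers: of the 361741 values from 1 to 20, 76.6% were even, so a limit of 3 counts can stand for fewer than 3 fragments, and intervals or limits from counts cover counting error only. The libraries numbered 1 stood apart in sex-linked transcripts. In the small intestine all 9 of them held Xist at 404 to 2111 CPM and no Ddx3y, while the 6 colon libraries of that number held both Xist (156 to 487 CPM) and Ddx3y (40.1 to 46.4 CPM); the other 45 libraries held Xist at no more than 1.94 CPM. Calls of members that changed without those libraries are given below with that value. All 8 epithelial genes examined (Epcam and Cdh1 among them) were at 1 CPM or more in every group. The summed level of 10 leukocyte genes was 4.35 to 44.0 CPM in GFP-high libraries and 112 to 1802 CPM in GFP-negative libraries. In the small intestine 6 Paneth genes summed to 4444 to 20703 CPM in the GFP-high and 299 to 1107 CPM in the GFP-negative libraries, and 8 cell cycle genes to 2337 to 3083 and 403 to 1371 CPM; the part of these cells in the differences below was not tested.

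In the small intestine, GFP-high cells held more of all 10 genes than GFP-negative cells did, in each of the 3 parts. They passed the test in the higher direction in 10 of 10 cases in the proximal, middle and distal part, where 22.5%, 22.7% and 25.7% of all genes tested did (edgeR quasi-likelihood, Benjamini-Hochberg adjusted p below 0.05 over 23360 genes). The median log2 difference of the 10 genes was 3.89, 4.62 and 4.78, against 0, -0.04 and -0.01 over all genes. In each part every GFP-high library was above every GFP-negative library for all 10 genes, which held for 21.7%, 21.4% and 21.1% of all genes. Of 24 other crypt base genes (such as Axin2, Sox9, Ephb2, Rnf43 and Lgr5 itself, a list drawn up with earlier results known), 24 were called higher in each part, with medians of 2.83, 3.10 and 2.87. The Lgr5 call, counted here and in the later comparisons of fractions, follows from the sort, since GFP is made together with Lgr5. No call of a member here was lost when any library was left out.

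The regulator and cell cycle genes showed this clearly in single libraries. Ascl2 read 97.4, 77.5, 65.5 and 57.8 CPM in the 4 proximal GFP-high libraries and 6.62, 3.89, 4.08 and 2.70 CPM in the GFP-negative ones, a log2 difference of 4.11 ± 0.37 (SE, adjusted p = 1.46e-13). The lowest GFP-high library was thus far above the highest GFP-negative one. Its difference was 4.86 ± 0.38 in the middle and 5.0 ± 0.38 in the distal part. Cdca7 reached 488 ± 35.6 CPM (SD, n = 4) in proximal GFP-high and 56.1 ± 8.12 CPM in GFP-negative cells, a log2 difference of 3.12 ± 0.14 (adjusted p = 3.13e-24). Cdk6, at 232 ± 15.4 and 36.2 ± 7.11 CPM, had the lowest difference of the 10 genes in each of the 3 parts, 2.68 ± 0.16, 2.96 ± 0.16 and 3.24 ± 0.16. These 2 genes kept 8.61% to 15.6% of their GFP-high level in GFP-negative cells, and cell cycle markers moved the same way, as given above.

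**Figure D1:**
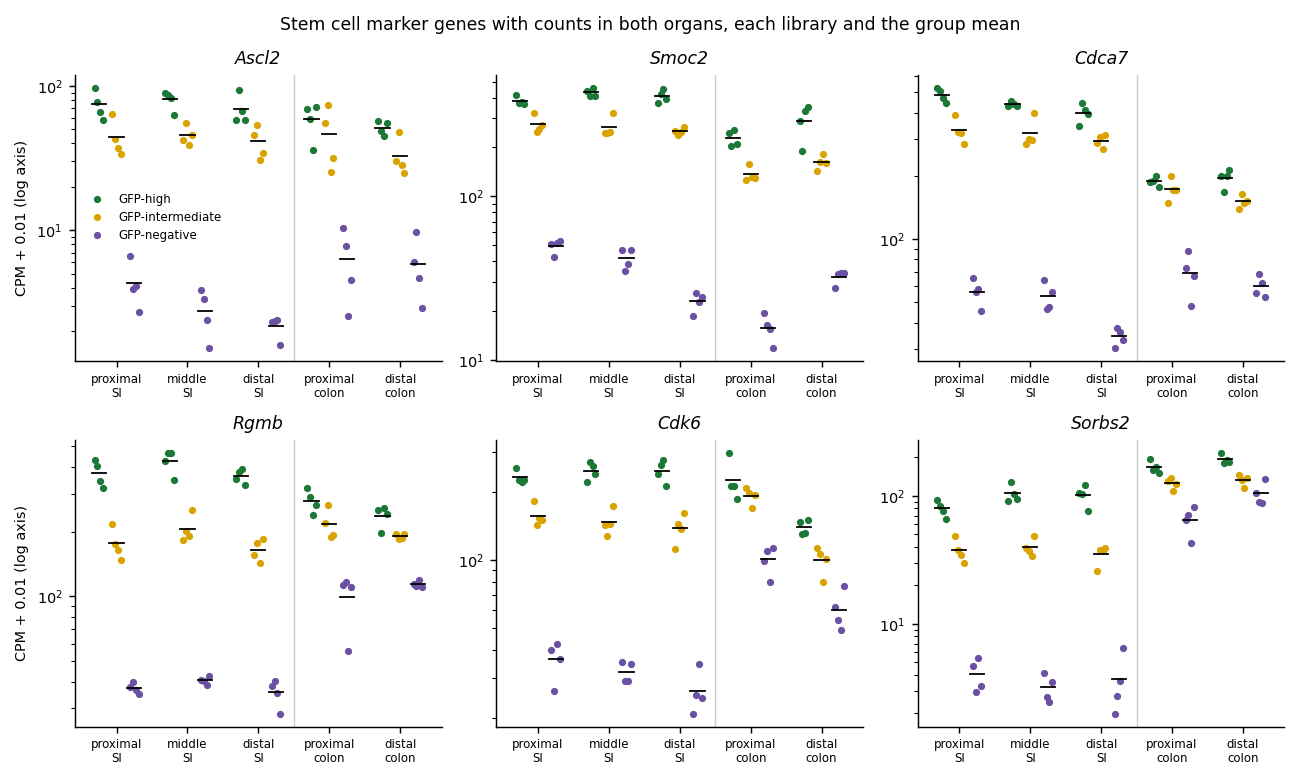
CPM + 0.01 on a log axis for 6 genes with counts in both organs, by gut part (SI, small intestine) and GFP fraction; each point is 1 library and each bar the mean of 4. In the small intestine GFP-high, GFP-intermediate and GFP-negative levels step down for each gene, while in the colon the GFP-negative levels of Rgmb, Cdk6, Cdca7 and Sorbs2 lie closer to the GFP-high ones.

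Among the secreted proteins was Olfm4, the most abundant member in CPM and per length. Olfm4 read 11078, 9937, 9881 and 10488 CPM in proximal GFP-high and 373, 352, 454 and 515 CPM in proximal GFP-negative libraries, a log2 difference of 4.61 ± 0.83 (adjusted p = 5.69e-06). It was 14595 ± 579 CPM in middle and 13221 ± 320 CPM in distal GFP-high cells, with differences of 4.87 ± 0.84 and 6.31 ± 0.90. Smoc2 averaged 382 ± 23.0, 431 ± 24.5 and 409.6 ± 35.3 CPM over the 3 GFP-high groups. Its GFP-negative level went from 49.6 ± 4.82 and 41.9 ± 6.16 CPM in the proximal and middle parts to 22.8 ± 3.18 CPM in the distal part, and its difference from 2.95 ± 0.14 to 4.17 ± 0.15. Gkn3 had differences of 4.97 ± 0.63, 6.97 ± 0.71 and 5.61 ± 0.72, and its distal value rested on GFP-negative replicate 4: 2 of the 4 libraries had no count there, and without that library the fitted difference was 9.07 (6.71 in place of 3.25 for GFP-intermediate against GFP-negative cells), which is no bound since the counts left were near 0.

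Among the membrane proteins, Tnfrsf19 showed differences of a size near those of Lgr5. It read 54.7, 64.5, 63.9 and 60.2 CPM in the distal GFP-high libraries and 0.395, 0.641, 0.921 and 0.699 CPM in the GFP-negative ones. GFP-negative cells thus held 1.09% of the GFP-high level, and 1.05% and 1.21% in the proximal and middle parts. The log2 differences were 6.57 ± 0.34, 6.35 ± 0.32 and 6.51 ± 0.32, beside 6.87 ± 0.34, 7.20 ± 0.35 and 7.46 ± 0.35 for Lgr5. Rgmb differed by nearly the same amount in the 3 parts, 3.33 ± 0.16, 3.39 ± 0.16 and 3.34 ± 0.16. Slc14a1 averaged 107 ± 29.5, 133 ± 34.1 and 90.5 ± 16.0 CPM over GFP-high libraries, with differences of 3.67 ± 0.54, 4.38 ± 0.56 and 4.75 ± 0.57. Sorbs2 differed by 4.29 ± 0.25, 5.03 ± 0.25 and 4.81 ± 0.25.

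GFP-intermediate cells of the small intestine held levels in between. In each part the mean of all 10 genes stepped down with the GFP signal, and the GFP-intermediate mean was 54.3%, 49.6% and 44.5% of the GFP-high mean for the median gene in the proximal, middle and distal part. All 10 genes were called higher in GFP-intermediate than in GFP-negative cells in each part, against 19.7%, 19.8% and 22.8% of all genes; the median differences were 3.03, 3.33 and 3.25. Their GFP-intermediate libraries were all above the GFP-negative ones for 10 members in each part, against 18.7%, 20.9% and 19.6% of all genes. Of the 24 other crypt base genes, 23 were called higher in each part. The comparisons of one part share their libraries, so these steps are not independent of the GFP-high against GFP-negative differences.

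The step from GFP-high to GFP-intermediate was smaller and was called for fewer members. It was called for 4, 7 and 8 of the 10 genes in the proximal, middle and distal part, all higher in GFP-high, against 0.154%, 1.43% and 5.29% of all genes. The median differences were 0.88, 1.01 and 1.17, against 0 over all genes in each part. The 24 other crypt base genes had 5, 8 and 13 called higher and medians of 0.73, 0.48 and 0.58. Every GFP-high library was above every GFP-intermediate library for 8, 10 and 10 members, against 6.23%, 8.63% and 9.70% of all genes.

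Tnfrsf19, Rgmb and Sorbs2 were called in all 3 parts. Tnfrsf19 read 30.9, 25.8, 22.7 and 18.5 CPM in proximal GFP-high and 7.61, 6.09, 5.80 and 5.27 CPM in GFP-intermediate libraries, which do not overlap. Its differences were 1.98 ± 0.26 (adjusted p = 8.87e-06), 1.56 ± 0.25 and 1.55 ± 0.25, so that 25.3%, 33.9% and 34.1% of the GFP-high level remained; Lgr5 kept 24.4%, 24.2% and 26.3%. Rgmb kept 47.0%, 48.6% and 45.6%, with differences of 1.09 ± 0.15, 1.04 ± 0.15 and 1.13 ± 0.15. Sorbs2 differed by 1.08 ± 0.21, 1.40 ± 0.22 and 1.55 ± 0.22; its proximal call was lost without proximal GFP-intermediate replicate 4 (0.98, adjusted p = 0.0663) and without all libraries numbered 2 (1.06, adjusted p = 0.289) or numbered 3 (1.06, adjusted p = 0.118).

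Cdca7 kept much of its level: it held 67.5%, 72.7% and 73.6% of its GFP-high level and was called in all 3 parts with differences of 0.57 ± 0.13, 0.46 ± 0.13 and 0.44 ± 0.13 (adjusted p = 0.0211, 0.0303 and 0.0144). These calls were lost without any of several single libraries: in the proximal part GFP-high replicates 1 and 2 and GFP-intermediate replicates 2, 3 and 4 (adjusted p up to 0.164), in the middle part GFP-high and GFP-intermediate replicates 1, 2 and 3 (up to 0.133), and in the distal part GFP-high replicate 2 and GFP-intermediate replicates 1 and 3 (up to 0.0586). Leaving out all libraries of 1 number ended the proximal call for each of the numbers 1 to 4 (adjusted p = 0.0778, 0.301, 0.154 and 0.163). It ended the middle call for numbers 1, 2 and 3 (0.174, 0.377 and 0.247) and the distal call for the same numbers (0.1002, 0.0902 and 0.107). Smoc2 and Cdk6 were called in the middle and distal parts, where Smoc2 differed by 0.71 ± 0.14 and 0.72 ± 0.14 and Cdk6 by 0.76 ± 0.15 and 0.84 ± 0.15. In the middle part the calls of Cdk6 (adjusted p = 0.199), Tnfrsf19 (0.0672) and Sorbs2 (0.0597) were lost without the libraries numbered 2, and that of Smoc2 (0.11) without those numbered 3. In the proximal part Cdk6 did not pass (0.56 ± 0.15, adjusted p = 0.0612), but passed at 0.0492 with replicate number blocked. Smoc2 there had 0.48 ± 0.13 (adjusted p = 0.101), and passed without GFP-intermediate replicate 1 (0.57, adjusted p = 0.0475), as did Cdk6 (0.64, adjusted p = 0.0394).

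Olfm4 did not pass in any part, although its libraries did not overlap. The proximal GFP-intermediate libraries read 6026, 4849, 5101 and 5781 CPM, all below the GFP-high values given above, and the difference was 0.93 ± 0.72 (adjusted p = 0.834). The fit takes 1 spread per gene from all 15 groups, among them proximal colon GFP-high cells at 5.01 ± 5.58 CPM (SD). Its SE is thus not that of the 2 proximal small intestine groups alone, at 10346 ± 560 and 5440 ± 555 CPM (SD). Fitted on those 2 groups alone, the same difference had an adjusted p of 0.000173; there all 10 members were called, and 2400 genes in place of 105. The middle and distal differences of Olfm4, 0.98 ± 0.72 and 1.20 ± 0.72 (adjusted p = 0.492 and 0.29), passed in such fits as well (0.00791 and 0.00233). Ascl2, with differences of 0.75 ± 0.32, 0.82 ± 0.32 and 0.75 ± 0.32, did not pass either (adjusted p = 0.404, 0.128 and 0.114) and passed on the compared groups alone in each part (0.0333, 0.00372 and 0.025); with replicate number blocked it passed in the middle (0.0391) and distal part (0.0234).

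Slc14a1 and Gkn3 kept less of their GFP-high level towards the distal part. The same order held for Sorbs2 (47.2%, 37.8% and 34.1%), Cdk6 (67.7%, 59.1% and 55.8%), Smoc2 (71.9%, 61.2% and 60.9%) and Olfm4 (52.6%, 50.6% and 43.5%). Tnfrsf19 and Cdca7 went the other way, and Ascl2 and Rgmb had no steady order. Whether the step itself differed between parts was not tested. Slc14a1 kept 56.1% of its GFP-high level in proximal, 39.4% in middle and 24.6% in distal GFP-intermediate cells. The distal libraries read 96.2, 102, 96.5 and 66.9 CPM in GFP-high and 22.9, 26.7, 17.7 and 21.8 CPM in GFP-intermediate cells, a difference of 2.02 ± 0.50 (adjusted p = 0.00568) that did not pass without the libraries numbered 1 (2.00, adjusted p = 0.0780). The proximal and middle differences, 0.83 ± 0.49 and 1.34 ± 0.49, did not pass (adjusted p = 0.662 and 0.103). The middle one passed with the newer quasi-likelihood method (0.0113), with counts halved (0.0495) and on the groups alone (0.00186), and the proximal one on the groups alone (0.0409). Gkn3 kept 38.7%, 22.7% and 19.4%. Its proximal difference of 1.37 ± 0.54 did not pass (adjusted p = 0.327), but did with the newer method (0.00402) and on the groups alone (0.00148). It was called in the middle (2.14 ± 0.55, adjusted p = 0.0221) and distal part (2.36 ± 0.57, adjusted p = 0.00497), the first of which was lost without GFP-high replicate 2 or 3 or GFP-intermediate replicate 1, 2 or 3 (adjusted p up to 0.0995), without all libraries numbered 1 (0.148), 2 (0.293) or 3 (0.234) and with the DESeq2 Wald test (0.0837), and the second without all libraries numbered 1 (0.0698) or numbered 3 (0.0792).

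**Figure D2:**
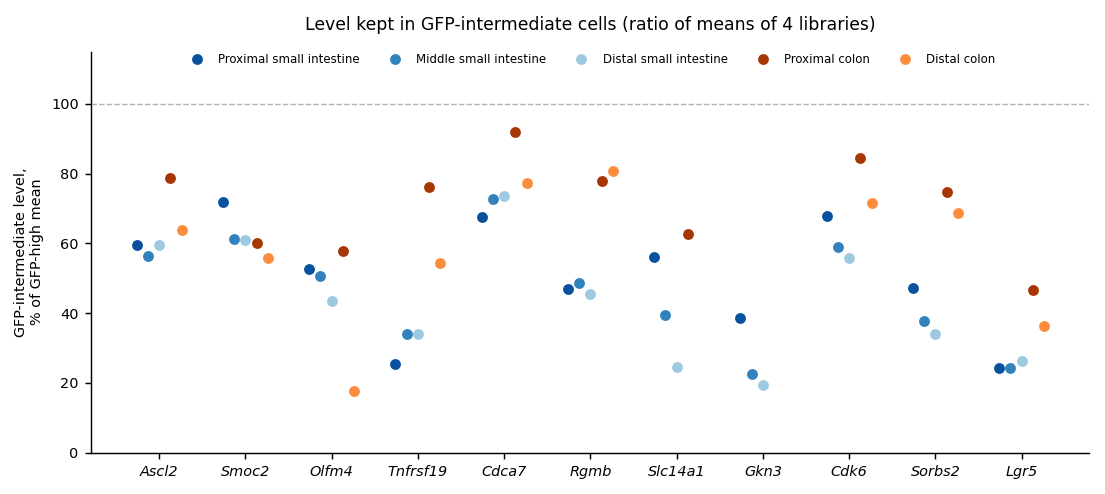
Mean CPM of the 4 GFP-intermediate libraries as a percent of the mean of the 4 GFP-high libraries, for each gene and gut part, with Lgr5 for reference; the dashed line marks an equal level. Gkn3 has no colon points because both fractions were at or under 3 counts per library, and the same holds for Slc14a1 in the distal colon; Tnfrsf19 lies at 25.3% to 34.1% in the small intestine and at 76.2% and 54.4% in the colon.

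Along the small intestine, 8 of the 10 genes did not pass between distal and proximal GFP-high cells. Tnfrsf19 was called higher and Gkn3 lower in the distal part, against 6.39% and 5.42% of all genes in those directions. Gkn3 read 88.7, 66.2, 75.1 and 52.1 CPM in the proximal, 38.0, 39.5, 44.2 and 28.8 CPM in the middle and 2.68, 5.30, 6.26 and 7.34 CPM in the distal GFP-high libraries. The 3 parts do not overlap, and the distal against proximal difference was -3.71 ± 0.59 (adjusted p = 9.00e-06). Tnfrsf19 went the other way, from 24.5 ± 5.21 CPM in proximal to 60.3 ± 8.54 CPM in middle and 60.8 ± 4.51 CPM in distal GFP-high cells, a difference of 1.31 ± 0.25 (adjusted p = 0.000153). Lgr5 rose in the same comparison by 0.80 ± 0.26 (adjusted p = 0.0381). Olfm4 (0.35 ± 0.71, adjusted p = 0.827) and Cdca7 (-0.29 ± 0.13, adjusted p = 0.124) passed on these 2 groups alone (0.00111 and 0.0254). The 24 other crypt base genes had 2 called higher and 2 lower.

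The GFP-high against GFP-negative difference itself changed along the small intestine for Smoc2 alone among the 10 members, against 2.54% of all genes called higher. The interaction was 1.22 ± 0.19 (adjusted p = 2.40e-05), which goes with the lower distal GFP-negative level of 18.4, 25.8, 22.6 and 24.3 CPM, all under the proximal values of 51.002, 42.5, 51.6 and 53.2 CPM. The number of members called in this comparison was 3 without distal GFP-negative replicate 4, and 2 without distal GFP-negative replicate 3, without proximal GFP-negative replicate 2, without all libraries numbered 4 or on the groups compared alone.

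In the colon the members did not move together. Ascl2, Smoc2, Tnfrsf19, Cdca7, Rgmb, Cdk6 and Sorbs2 were lower in GFP-negative than GFP-high cells of both parts, and Olfm4 was called in that direction in the proximal part only and at a low level. Slc14a1 was higher in GFP-negative cells, and Gkn3 was not detected beyond a few counts. In the proximal colon 8 members were called higher and 1 lower, against 11.3% and 14.0% of all genes, and in the distal colon 7 higher and 1 lower, against 11.2% and 13.9%. Over the 9 members with more than 3 counts per library the proximal median difference was 1.49, against -0.04 over all genes. Every GFP-high library was above every GFP-negative library for 7 members in each part, against 8.76% and 10.3% of all genes. The 24 other crypt base genes had 19 called higher and 1 lower (Prom1, -0.54 ± 0.15) in the proximal colon and 17 higher in the distal colon; Mecom (0.07 ± 0.17 and 0.09 ± 0.17), called with the rest in the small intestine, passed in neither colon part.

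Smoc2 and Ascl2 had the largest differences among the 7 genes that were higher in both parts. Smoc2 read 243, 203, 253 and 207 CPM in proximal colon GFP-high and 19.4, 16.4, 15.3 and 11.8 CPM in GFP-negative libraries, a difference of 3.85 ± 0.15 (adjusted p = 4.44e-26), and differed by 3.17 ± 0.15 in the distal colon. Ascl2 differed by 3.23 ± 0.35 (adjusted p = 8.51e-10) and 3.14 ± 0.35: its proximal colon libraries read 68.8, 59.1, 36.1 and 71.9 CPM in GFP-high and 10.4, 7.72, 2.54 and 4.51 CPM in GFP-negative cells. For both genes the fractions were fully separated. The other 5 genes had smaller differences in the proximal and distal colon: Tnfrsf19 1.66 ± 0.26 and 1.97 ± 0.26, Cdca7 1.46 ± 0.13 and 1.71 ± 0.13, Rgmb 1.49 ± 0.15 and 1.06 ± 0.15, Cdk6 1.18 ± 0.15 and 1.22 ± 0.15, and Sorbs2 1.37 ± 0.22 and 0.87 ± 0.21 (adjusted p = 0.0016 for the last). Rgmb in proximal colon GFP-negative replicate 3, at 55.5 CPM, lay under the other 3 libraries of 110 to 117 CPM; that library also held the highest summed leukocyte level of the colon, 1151 CPM, and the part of those cells was not tested.

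**Figure D3:**
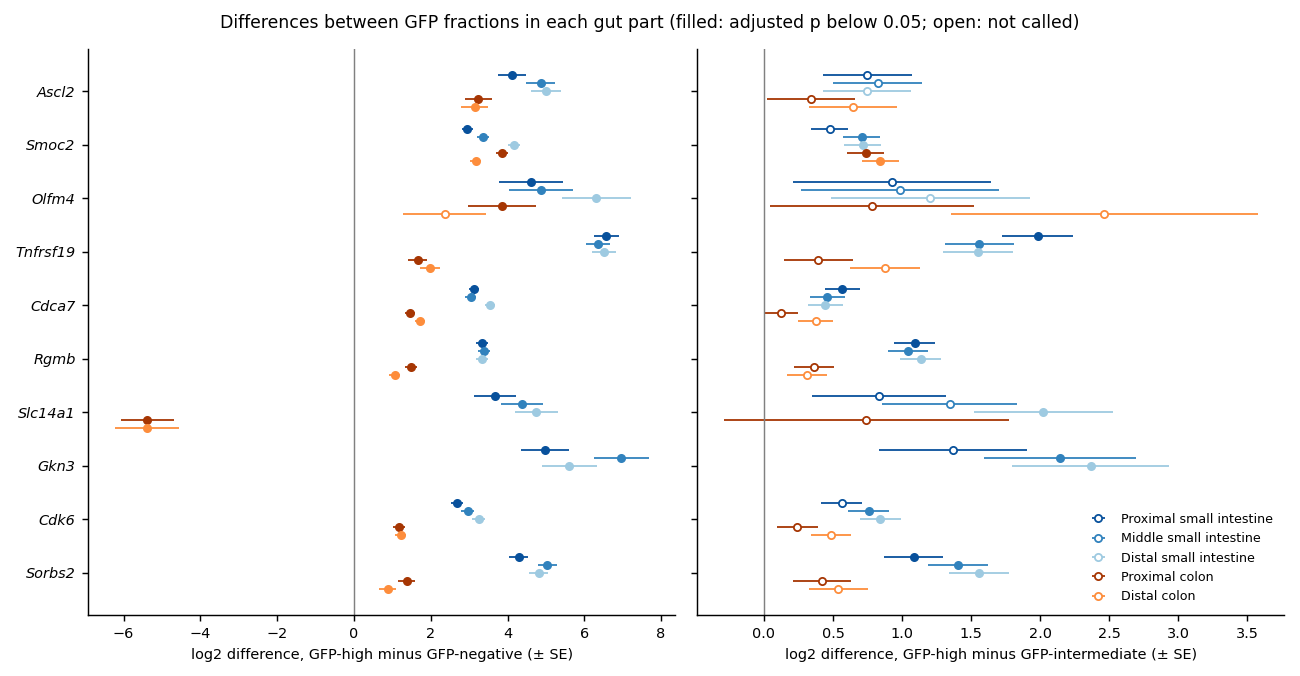
Fitted log2 differences with their SE for each gene and gut part, GFP-high minus GFP-negative on the left and GFP-high minus GFP-intermediate on the right; filled points passed an adjusted p of 0.05. For each gene except Smoc2 and Slc14a1, the colon points of the left panel lie nearer 0 than those of the small intestine, and those of Slc14a1 lie at -5.39 and -5.40; pairs at or under 3 counts per library on both sides are left out.

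GFP-intermediate cells of the colon held 76.2% of the GFP-high level in the proximal and 60.2% in the distal colon for the median gene, Gkn3 and Slc14a1 at their few counts included where a percent could be had. A step from GFP-high to GFP-intermediate was called for 1 member in each part, against 0.0171% and 0.548% of all genes, and it was Smoc2 both times. Smoc2 read 125, 158, 131 and 130 CPM in proximal colon GFP-intermediate libraries, all below the GFP-high ones, with a difference of 0.74 ± 0.14 (adjusted p = 0.0119), and differed by 0.84 ± 0.14 (adjusted p = 0.00161) in the distal colon. The proximal call was lost on the 2 groups alone (adjusted p = 0.111), without GFP-high replicate 1 or 3 or GFP-intermediate replicate 1, 3 or 4 (adjusted p up to 0.0947), and without all libraries numbered 1 (0.311) or numbered 3 (0.884); the distal call was lost without those numbered 3 (0.104).

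In the distal colon the count of members called in this step depended on the fit: it was 1 in the fit over all groups, 3 with replicate number blocked, which added Tnfrsf19 (adjusted p = 0.0444) and Cdk6 (0.0499), 4 with DESeq2 and 7 on the 2 groups alone. Every GFP-high library was above every GFP-intermediate library for 6 members there, against 8.53% of all genes, and for 3 in the proximal colon, against 3.26%. GFP-intermediate cells were called higher than GFP-negative cells for 8 members in the proximal and 6 in the distal colon, and lower for 1 in each (Slc14a1), against 7.51% and 3.85% of all genes higher and 7.52% and 5.95% lower. The libraries of these 2 fractions were fully separated in that direction for 7 and 6 members, against 9.23% and 7.05% of all genes. Whether the step from GFP-high to GFP-intermediate differed between the organs was not tested. Sorbs2 did not pass in the distal colon, where its GFP-intermediate libraries of 146, 133, 114 and 138 CPM overlapped GFP-negative ones of 106, 90.4, 88.5 and 136 CPM (0.33 ± 0.21, adjusted p = 0.387). The distal call of Tnfrsf19 (1.09 ± 0.26) was lost without the libraries numbered 2 (adjusted p = 0.0519).

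Olfm4, the most abundant member in the small intestine, was nearly absent from the colon. The proximal colon GFP-high libraries held 0, 12.99, 3.89 and 3.15 CPM and the distal ones 1.28, 0, 0.328 and 0.750 CPM, with no count at all in 1 library of each group. The number-2 library was the highest in the proximal colon in all 3 fractions, its GFP-intermediate library holding 10.1 CPM and its GFP-negative library 0.917 CPM. The proximal GFP-high against GFP-negative difference was 3.86 ± 0.89 (adjusted p = 0.000856), the libraries overlapped, and on those 2 groups alone the adjusted p was 0.108. The GFP-intermediate against GFP-negative difference there, 3.07 ± 0.89 (adjusted p = 0.0114), became 0.60 (adjusted p = 0.776) without GFP-intermediate replicate 2, and lost its call on the 2 groups alone (0.22) and without all libraries numbered 2 (0.341), numbered 3 (0.0627) or numbered 4 (0.0565). In the distal colon the difference of 2.37 ± 1.08 did not pass (adjusted p = 0.101), though it did without GFP-negative replicate 4 (3.66, adjusted p = 0.0448). Olfm4 shares exons with the long non-coding gene Gm6999 on the same strand, which reached at most 39.6 CPM in any library, and reads that fall on both cannot be assigned to either.

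Gkn3 had no count in any GFP-high or GFP-negative library of the proximal colon. The other colon groups held 8 counts in 1 library (proximal GFP-intermediate), 12 in 1 library (distal GFP-high), 4 and 2 in 2 libraries (distal GFP-intermediate) and 2 in 1 library (distal GFP-negative). No fold is given between colon fractions for that reason. Between proximal colon and distal small intestine GFP-high cells, Gkn3 was at least 175-fold lower in the colon at a floor of 3 counts per library.

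**Figure D4:**
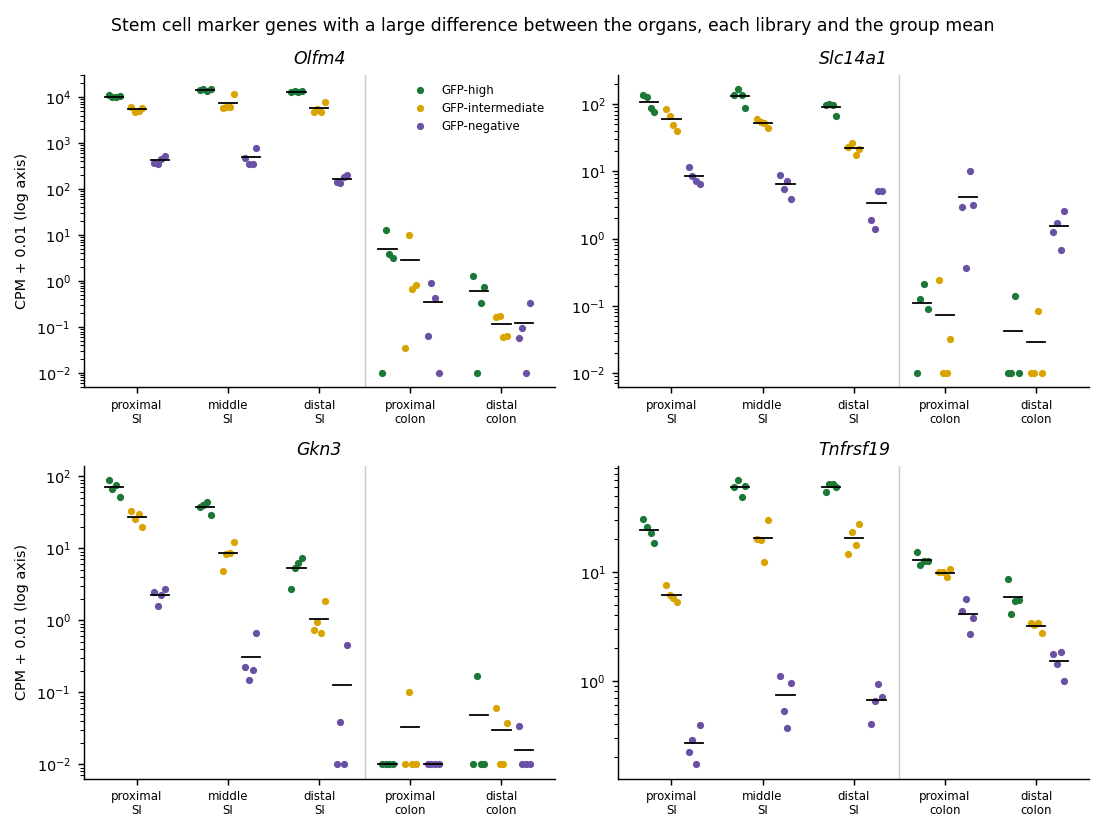
CPM + 0.01 on a log axis for the 4 genes with large organ differences, by gut part (SI, small intestine) and GFP fraction; each point is 1 library, each bar the mean of 4, and points on the lowest level have no count. Olfm4 drops from at least 9881 CPM in GFP-high small intestine libraries to at most 12.99 CPM in the colon, Gkn3 declines from proximal to distal, and Slc14a1 is highest in GFP-negative cells in the colon.

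Slc14a1 reversed its order in the colon. GFP-high libraries held 0, 10, 18 and 10 counts in the proximal and 0, 0, 12 and 0 counts in the distal colon, at most 0.204 CPM. GFP-negative libraries held 2.94, 0.361, 10.001 and 3.14 CPM in the proximal and 1.25, 1.68, 0.678 and 2.61 CPM in the distal colon, each above every GFP-high library of its part. The fitted differences were -5.39 ± 0.69 (adjusted p = 3.75e-08) and -5.40 ± 0.83 (adjusted p = 2.47e-06), the size of which depends on the prior count where a side is near 0. GFP-intermediate cells were lower than GFP-negative cells too, with fitted differences of -6.13 ± 0.75 and -6.26 ± 0.93. In each distal GFP-high and GFP-intermediate group replicate 3 was the 1 library with counts, and leaving out all libraries numbered 3 gave -10.18 for both distal differences, which is no bound. The proximal difference of GFP-intermediate cells ranged from -8.94 to -4.74 as libraries were left out, and these calls remained in every omission.

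Leukocyte markers were high in the same libraries. Over replicates 1 to 4, the summed level of the 10 leukocyte genes was 387, 143, 1151 and 453 CPM in the proximal colon GFP-negative libraries and 112, 259, 133 and 362 CPM in the distal ones, and 10 of the 10 genes were at 1 CPM or more. The library with the highest sum held the most Slc14a1 (10.001 CPM). The sum of 10 stromal and endothelial genes was 55.9, 33.8, 106 and 56.2 CPM in the proximal and 26.7, 41.5, 30.8 and 50.2 CPM in the distal libraries. GFP-high colon libraries had leukocyte sums of 4.35 to 14.6 CPM. Other lists also differed between these fractions. In proximal and distal GFP-negative libraries 4 enteroendocrine genes summed to 3611 to 11165 and 327 to 723 CPM. They summed to 89.7 to 291 and 58.2 to 81.7 CPM in GFP-high ones. The 4 tuft genes overlapped in the proximal colon (94.2 to 169 and 146 to 255 CPM) but not in the distal (193 to 271 and 41.3 to 58.0 CPM). The cell cycle genes were lower in GFP-negative cells. Whether Slc14a1 in these libraries came from any of these cell types was not tested. In the small intestine GFP-negative libraries the leukocyte sum was 233 to 1802 CPM, and Slc14a1 was at 1.39 to 11.4 CPM.

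**Figure D5:**
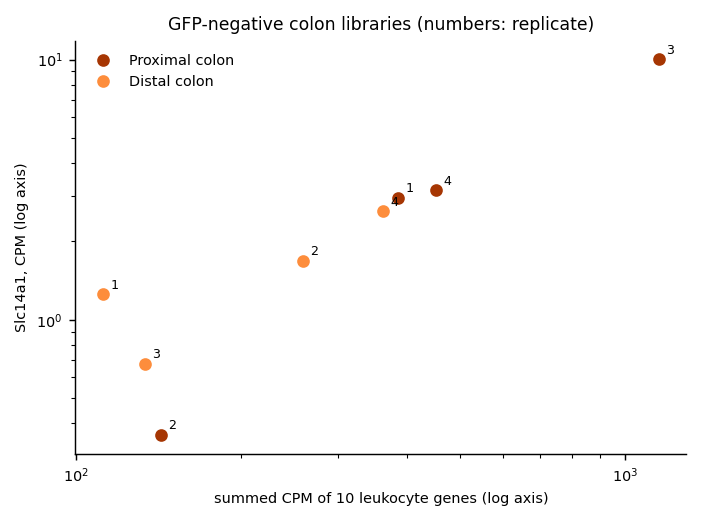
Slc14a1 CPM against the summed CPM of 10 leukocyte genes in the 8 GFP-negative colon libraries, both on log axes, with the replicate number beside each point. The proximal colon library with the highest leukocyte sum, 1151 CPM, has the highest Slc14a1 level, 10.001 CPM.

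Between organs, GFP-high cells of the colon held less of 8 members and more of 1. Taking the mean of the 2 colon parts against that of the 3 small intestine parts, 8 genes were called lower and Sorbs2 higher, against 21.3% and 20.9% of all genes in those directions, and the 24 other crypt base genes had 15 lower and 4 higher. Slc14a1, at 66.9 to 170 CPM in the small intestine GFP-high libraries and at most 0.204 CPM in the colon, differed by -10.81 ± 0.57 (adjusted p = 1.03e-22). That size ranged from -13.39 to -10.34 as libraries were left out and is no bound since the colon counts were few. Olfm4 differed by -12.84 ± 0.82 (adjusted p = 2.58e-19), and Gkn3 was lower as well (adjusted p = 7.19e-19), with a fitted size that is no bound. Tnfrsf19 was lower by -2.36 ± 0.18 and Cdca7 by -1.20 ± 0.08. The remaining lower genes differed by less than 1: Smoc2 -0.67 ± 0.09, Rgmb -0.59 ± 0.09 and Cdk6 -0.45 ± 0.10. Markers of other cell types differed between the same GFP-high libraries: 5 goblet cell genes summed to 10598 to 29733 CPM in the colon and 1671 to 3807 CPM in the small intestine, and the 6 Paneth genes to 17.3 to 381 CPM and 4444 to 20703 CPM. The 8 cell cycle genes summed to 1449 to 3029 CPM in the colon and 2337 to 3083 CPM in the small intestine. The part of these cells in the organ differences was not tested.

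Sorbs2 was the 1 member higher in the colon. Its GFP-high libraries read 194, 159, 170 and 150.1 CPM in the proximal and 217, 180.0, 190 and 184 CPM in the distal colon, all above the 66.1 to 129 CPM of the small intestine, a difference of 0.92 ± 0.13 (adjusted p = 9.34e-08). Ascl2 did not pass (-0.44 ± 0.21, adjusted p = 0.0878), but did with replicate number blocked (adjusted p = 0.0294) and without the libraries numbered 4 (-0.61, adjusted p = 0.0327). In the pair of adjoining parts, proximal colon against distal small intestine, 7 members were called lower and Sorbs2 higher (0.72 ± 0.21), against 11.7% and 12.2% of all genes; the Sorbs2 call was lost without the libraries numbered 2 (adjusted p = 0.0534). Rgmb, the weakest of the 7 (-0.38 ± 0.14, adjusted p = 0.0475), lost its call with other size factors (0.0574), with no filter (0.107), with counts halved (0.0904) and on the groups alone (0.0524). It was also lost without any of proximal colon GFP-high replicates 2, 3 and 4 or distal small intestine GFP-high replicates 1, 2 and 3 (adjusted p up to 0.197), and without all libraries numbered 1 (0.0958), 2 (0.163), 3 (0.243) or 4 (0.0767), while Cdk6 and Ascl2 did not pass (-0.13 ± 0.15 and -0.23 ± 0.32). Part and organ comparisons share GFP-high libraries with each other and with the comparisons of fractions.

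The GFP-negative cells differed between the organs in the other direction for several members. In colon GFP-negative cells 6 members were called higher and 4 lower than in the small intestine, against 28.1% and 22.4% of all genes. Sorbs2 had the largest of the 6 higher differences: its GFP-negative libraries read 64.5, 70.8, 43.0 and 81.7 CPM in the proximal and 106, 90.4, 88.5 and 136 CPM in the distal colon, against 1.97 to 6.41 CPM in all 12 small intestine libraries, a difference of 4.51 ± 0.15 (adjusted p = 3.04e-31). Tnfrsf19 was higher by 2.31 ± 0.18, Rgmb by 1.49 ± 0.09, Cdk6 by 1.32 ± 0.09, Ascl2 by 1.03 ± 0.21 and Cdca7 by 0.45 ± 0.08, as was Lgr5 by 1.62 ± 0.17. Smoc2 differed by -0.69 ± 0.09, beside -0.67 ± 0.09 in GFP-high cells. In these GFP-negative libraries 6 enterocyte genes summed to 49.4 to 366 CPM in the colon and 9069.6 to 23074 CPM in the small intestine. The 5 goblet genes summed to 15798 to 56468 CPM and 32025 to 58099.5 CPM in the same order. Colonocyte genes, 5 in number, summed to 6806 to 7051 CPM in the proximal and 552 to 775 CPM in the distal colon. Their sum was 586 to 1378 CPM in the small intestine. The part of these cells in the differences was not tested. Olfm4, Gkn3 and Slc14a1 (-1.15 ± 0.34) were the other lower genes.

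The difference between GFP-high and GFP-negative cells was therefore smaller in the colon for most members. Tested as an interaction over all 5 parts, it was lower in the colon for 7 members and higher for none, against 17.7% of all genes lower. The 24 other crypt base genes had 22 lower, and Lgr5 itself -2.47 ± 0.25. The interaction was -4.66 ± 0.25 for Tnfrsf19 (adjusted p = 1.27e-20), -3.59 ± 0.20 for Sorbs2, -2.08 ± 0.13 for Rgmb, -1.76 ± 0.14 for Cdk6, -1.65 ± 0.12 for Cdca7 and -1.47 ± 0.30 for Ascl2 (adjusted p = 8.31e-05). Slc14a1, whose direction differed between the organs, had -9.66 ± 0.61. It ranged from -11.98 to -9.18 as libraries were left out, and its size is no bound since the colon GFP-high counts were few. Smoc2 had 0.02 ± 0.12 (adjusted p = 1). Olfm4 did not pass at -2.15 ± 0.87 (adjusted p = 0.052), and passed without the libraries numbered 1 (-2.51, adjusted p = 0.0189), without any of 8 single libraries (-1.94 to -2.69) and on the groups compared alone (0.0433); these 8 are distal colon GFP-high replicate 1, distal colon GFP-negative replicates 1 and 3, proximal colon GFP-high replicates 1 and 2, proximal colon GFP-negative replicates 1 and 4, and middle small intestine GFP-negative replicate 4. The Gkn3 interaction rests on proximal colon GFP-high and GFP-negative groups without a count: edgeR gave -4.66 (adjusted p = 1) and DESeq2 -4.56 (adjusted p = 0.00109), neither of which is a bound.

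Between the colon parts, GFP-high cells of the distal part were lower for 3 members and higher for none, against 4.05% of all genes lower. Cdk6 read 298, 213, 211 and 185 CPM in the proximal and 147, 130.04, 132 and 150.04 CPM in the distal colon, which do not overlap, a difference of -0.70 ± 0.15 (adjusted p = 0.000664). Tnfrsf19, at 15.1, 11.6, 12.5 and 12.6 CPM against 8.65, 4.09, 5.36 and 5.48 CPM, differed by -1.14 ± 0.25 (adjusted p = 0.00131). Olfm4 (-3.07 ± 0.83, adjusted p = 0.0114) lost its call without proximal GFP-high replicate 2 (-1.98, adjusted p = 0.169), without distal GFP-high replicate 3 (-2.87, adjusted p = 0.0505), without all libraries numbered 2 (0.296) or numbered 3 (0.133), and on the 2 groups alone (0.213). Smoc2 went the other way without passing (0.35 ± 0.13, adjusted p = 0.103), and passed without distal GFP-high replicate 2 (0.51, adjusted p = 0.00597). No member was called for a change of the GFP-high against GFP-negative difference between the colon parts, where 0.616% of all genes were in either direction; DESeq2 called 1 member, and edgeR 1 without distal GFP-high replicate 4 or without proximal GFP-negative replicate 1.

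Compared per length, the members ranged widely in GFP-high cells. In the proximal small intestine Olfm4 stood at 3493 CPM per kb, Cdca7 at 152, Gkn3 at 82.4, Smoc2 at 55.0, Rgmb at 48.8, Ascl2 at 45.9, Slc14a1 at 26.8, Cdk6 at 16.6, Tnfrsf19 at 5.16 and Sorbs2 at 2.79 CPM per kb; Lgr5 was at 30.5. In the proximal colon the order began with Cdca7 at 58.9, Ascl2 at 36.4, Rgmb at 36.2, Smoc2 at 32.6 and Cdk6 at 16.2 CPM per kb, then Sorbs2 at 5.87, Tnfrsf19 at 2.74 and Olfm4 at 1.69. Within a gene, GFP-high groups ranked by mean level often overlapped the next lower one. Ascl2 fell from 80.6 CPM in the middle small intestine to 51.5 CPM in the distal colon over 5 such ranked groups, each overlapping the next. Between these ends came the proximal and distal small intestine and the proximal colon. Gkn3 in contrast separated fully between the 3 small intestine parts. Cdk6 shares exons with the antisense gene Gm17590 (at most 0.416 CPM) and Sorbs2 with Sorbs2os (at most 1.00 CPM), and strandedness of the counting is not given in the sources used here.

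Across the 15 group means, the members fell into patterns that the following correlations of log2 CPM describe (n = 15 groups, which share organ and fraction, so no test is given). Within the 9 small intestine groups Slc14a1 followed Lgr5 with r = 0.94, and within the 6 colon groups it ran against it with r = -0.88. Sorbs2 and Rgmb correlated at 0.87 over 15 groups and at 1.00 within the small intestine. Over 15 groups Olfm4 correlated with Slc14a1 (0.89) and Gkn3 (0.90) but not with Sorbs2 (-0.36). Within the small intestine groups it followed Slc14a1 (0.97), Gkn3 (0.82) and Sorbs2 (0.98) alike. Within the colon groups, where Olfm4, Slc14a1 and Gkn3 were low, these values were -0.45, -0.18 and 0.48. The tested gene nearest to each member, among those of at least 10 CPM in some group, was Ctc1 for Ascl2, Trim28 for Cdca7, Platr25 for Cdk6, Cfi for Olfm4, Ncaph for Smoc2, Gm6999 for Gkn3, Zfp763 for Tnfrsf19, B930095G15Rik for Rgmb, Rassf5 for Slc14a1 and Tcaf1 for Sorbs2, with r from 0.97 (Rassf5) to 1.00 (Gm6999). Gm6999 is the gene that shares exons with Olfm4. A high correlation does not mean a change of like size. From proximal small intestine GFP-high to GFP-negative cells, Zfp763 went from 12.6 to 5.31 CPM and Tnfrsf19 from 24.5 to 0.257 CPM. Cfi, the gene for complement factor I, went from 34.8, 39.2 and 38.3 CPM in GFP-high cells of the 3 small intestine parts to 0.683 and 0.416 CPM in the colon. The median profile of the 10 members was nearest to Mdc1, Utp14a, Rps6ka6, Myc and Dtl (r = 0.99 each).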

How the data were processed

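The deposited values are whole-number counts per gene and library for 60 libraries; the authors made them with STAR and featureCounts (Subread) on mm10, per the submitters' processing notes, which also name edgeR. The annotation release, library strandedness and whether read mates were counted singly are not given in the sources used here. The members and the gene lists were chosen with earlier results of these data known. From the counts, edgeR 4.0.16 (R 4.3.3, limma 3.58.1) kept genes passing filterByExpr (23360, with 99.97% or more of each library's counts), scaled by TMM (factors 0.777 to 1.16) and fitted its quasi-likelihood model to all 15 groups (45 residual degrees of freedom). P-values were two-sided and Benjamini-Hochberg adjusted over all genes tested in each of 23 comparisons, and called below 0.05. Each standard error was taken from the F statistic, as the size of the log2 difference over its root. CPM values use TMM library sizes.

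Named genes are the 10 members, Lgr5, and the genes with the highest correlation of group means to each member (1) and to their median profile (5); other genes come from the lists of cell type markers or other crypt base genes, apart from Xist and Ddx3y, added as a check of the libraries after their values were seen, and the genes whose exons overlap a member's. The deposited batch number equals the replicate number in all 60 libraries, and no 2 libraries were identical. Alternatives were DESeq2 size factors, no filter, the newer quasi-likelihood method, the replicate number as a block, DESeq2 1.42.0, only the groups compared, and leaving out each library or all libraries of 1 number. Fits without a single library kept the gene filter and the trend of spread over level from the fit to all libraries. Their scaling and quasi-likelihood spread were estimated anew. Fits without all libraries of 1 number repeated every step. Halved counts were added after the even counts were seen.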

Additional observations from a re-analysis of the deposited data

Results flagged for a closer look

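Of 150 groups of 4 libraries (10 genes in 15 groups), those with at most 3 counts in every library were not examined. In 15 groups a library's gap to its nearest neighbour exceeded Dixon's 95% critical share of the group's range. Chance gives about 1 in 20 for normally spread values. That rate does not hold where only 1 library had counts, since the share is then 1 by construction. The middle small intestine GFP-intermediate replicate 4 stood high for 3 genes, with Smoc2 at 323 CPM, Olfm4 at 11608 CPM and Cdca7 at 398 CPM. The proximal colon GFP-intermediate replicate 2 stood high for Smoc2 (158 CPM), Olfm4 (10.1 CPM) and Gkn3 (0.0910 CPM). Ascl2 was low in distal small intestine GFP-negative replicate 4 (1.60 CPM), Smoc2 in distal colon GFP-negative replicate 1 (27.4 CPM) and Rgmb in proximal colon GFP-negative replicate 3 (55.5 CPM). Gkn3 was high in GFP-negative replicate 4 of the middle (0.646 CPM) and distal small intestine (0.437 CPM). The others are single colon libraries with a few counts: Slc14a1 in proximal GFP-intermediate replicate 1 (0.228 CPM), distal GFP-high replicate 3 (0.131 CPM) and distal GFP-intermediate replicate 3 (0.0740 CPM), and Gkn3 in distal GFP-high replicate 2 (0.156 CPM).

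The difference between GFP-high and GFP-negative cells itself differed between colon and small intestine, by the interaction test, for 7 genes. On the log2 scale it was -1.47 for Ascl2, -3.59 for Sorbs2, -1.76 for Cdk6, -2.08 for Rgmb, -1.65 for Cdca7, -9.66 for Slc14a1 and -4.66 for Tnfrsf19. Between distal and proximal small intestine it differed for Smoc2, by 1.22.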

How the results depend on the processing

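Counts of members called stayed within 1.5 times under DESeq2 size factors and without the filter in all 23 comparisons; DESeq2 size factors moved the median of all genes by up to -0.15 (log2). Fitting only the groups compared gave, for GFP-high against GFP-intermediate cells, 10 in the proximal small intestine (4 over all groups), 0 in the proximal colon (1) and 7 in the distal colon (1), and 4 for distal against proximal small intestine GFP-high cells (2) and 2 for the change of the GFP difference along the small intestine (1). In the distal colon step the newer quasi-likelihood method and the halved counts each gave 2, the replicate block 3 and the DESeq2 Wald test 4; DESeq2 also gave 1 (0) for the change of the GFP difference between colon parts.

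Leaving out libraries gave, for GFP-high against GFP-negative, 10 to 10 members called in each small intestine part, 9 to 9 in the proximal and 8 to 9 in the distal colon. For GFP-high against GFP-intermediate it gave 2 to 6, 2 to 7 and 5 to 8 along the small intestine and 0 to 1 and 0 to 2 in the colon. The changes of the GFP difference had 7 to 8 between organs, 0 to 1 between colon parts and 1 to 3 along the small intestine. Counts moved by over 1.5 times without the libraries numbered 1 (distal small intestine step 5, proximal colon step 0), numbered 2 (proximal and middle small intestine steps 2 each) and numbered 3 (2 and 4 there, 0 in both colon steps). Without proximal small intestine GFP-intermediate replicate 4 the proximal step had 2, and without distal colon GFP-high replicate 2 the distal colon step had 2.

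Directions reversed only for uncalled differences, when libraries were left out. For GFP-high against GFP-intermediate in the proximal colon, Olfm4 ranged from -0.31 to 3.33 and Slc14a1 from -0.26 to 3.91; Olfm4 in distal colon GFP-intermediate against GFP-negative cells ranged from -0.55 to 1.39. Between distal and proximal small intestine GFP-high cells, Ascl2 ranged from -0.29 to 0.10 and Rgmb from -0.13 to 0.023; Cdca7 between colon parts ranged from -0.021 to 0.12. The Smoc2 organ interaction ranged from -0.12 to 0.16.

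Same-numbered libraries had a mean residual correlation of 0.0361 (420 pairs, 15% above 0.1, lowest -0.183), and 0.0660 within a gut part (33.3% above 0.1), against -0.0118 for others (0.794% above 0.1). Same-numbered libraries were thus more alike on average, though not every pair was above 0.1, which does not decide whether a number marks a pairing. The deposited batch number equals it, so a number names a batch. Whether that batch is an animal, a day or a sequencing run is not said. The main fit leaves it out, and the block was kept as an alternative. The replicate block changed 6 of 203 member results, all to called, and took the distal colon step from 1 to 3 members.

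Over all genes, GFP-high against GFP-intermediate called 105 genes in the proximal small intestine (175 newer method, 179 block, 382 DESeq2, 2400 groups alone), 836 in the middle (540 no filter, 2059 DESeq2, 3545 groups alone), 10 in the proximal colon (19 block, 76 DESeq2, 4 halved, 0 groups alone) and 422 in the distal colon (200 no filter, 711 newer method, 862 block, 1817 DESeq2, 3433 groups alone). Groups alone also gave 2899 (5912) for proximal colon GFP-high against GFP-negative and 4996 (2759) along the small intestine. The GFP difference changed for 144 genes between colon parts (277 DESeq2, 52 groups alone) and 826 along the small intestine (531 no filter, 1291 DESeq2, 235 groups alone). Where calls changed, the cause was not tested.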
